A study of Caenorhabditis elegans with 6 samples.

Results

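The 10 genes described here, atg-2, atg-3, atg-7, atg-9, atg-10, atg-18, lgg-1, lgg-2, sqst-1 and hlh-30, encode parts of the autophagy machinery of Caenorhabditis elegans and one of its transcriptional regulators. They were chosen by WormBase symbol and found by sequence name, and they are 10 of the 22010 genes measured. RNA was sequenced from whole animals at the last larval stage (L4), grown from bleach-isolated embryos at 20°C on E. coli OP50. The WT group was 3 libraries of icbIs4 animals in the N2 background, and the mutant group was 3 libraries of icbIs4 animals that also carried pals-25(icb98). The transgene icbIs4, which both groups share, drives GFP from the chil-27 promoter and mCherry from the col-12 promoter. The icb98 allele came from a mutagenesis screen for chil-27 reporter expression without infection and truncates the PALS-25 protein by an early stop codon, so the mutant group stands for a single isolated strain. The sample names call the replicates biological. The comparison asks how RNA levels differ between uninfected mutant and WT animals.

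Autophagy encloses cytoplasm in a double membrane, the autophagosome, which fuses with lysosomes so that its contents are degraded. LGG-1 and LGG-2, the worm relatives of yeast Atg8, are attached to lipid on this membrane by ATG-7, an activating enzyme, and ATG-3, a conjugating enzyme, and ATG-10 acts in the parallel system that joins LGG-3 to ATG-5. ATG-9, ATG-2 and ATG-18 deliver lipid to the growing membrane, SQST-1 carries ubiquitin-tagged cargo to it, and HLH-30, the worm relative of mammalian TFEB, is a transcription factor known for activating autophagy and lysosomal genes. In worms and mammals autophagy can act on microbes inside cells. The authors report that pals-22 mutants and pals-25(icb98) mutants resist an intracellular parasite of the intestine.

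Library totals lay between 40709626 and 47297002 estimated counts. The transcripts of pals-22 and pals-25 were 4.103 ± 0.774 and 2.04 ± 0.377 CPM (counts brought to a common library total with TMM factors) in WT and 8.09 ± 0.316 and 4.03 ± 0.232 CPM in the mutant (SD, n = 3). A stop codon need not remove a transcript, so the genotype could not be checked from them. The response genes pals-5 and chil-27 were at most 0.221 CPM in every WT library and at least 20.95 CPM in every mutant library. Marker genes of the labelled whole animal were detected for epidermis, intestine, muscle, pharynx, neurons and germline, with no listed marker at 0. WT replicate 2 stood apart. Its summed level of 7 molting genes was the highest of all libraries (3693 CPM, against 2048 and 2469 in the other WT libraries and 725 to 1115 in the mutant). Its summed levels of germline markers (1725 CPM against 2187 to 2356 in the others) and sperm markers (112 CPM against 308 to 389) were the lowest, and so was that of oocyte and yolk markers. Without this library, the share of all tested genes called rose from 20.5% to 37.5%.

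Of the 10 autophagy genes, 7 were higher in the mutant (lgg-1, atg-18, sqst-1, lgg-2, atg-2, atg-3 and atg-9), atg-10 was lower, and atg-7 and hlh-30 did not pass the test. The rises ran from 1.36-fold for atg-9 to 2.90-fold for lgg-1. Calls are edgeR quasi-likelihood tests over all 16166 tested genes at an adjusted p under 0.05, and all 10 autophagy genes passed the filter on low counts. Among all tested genes 9.8% were called higher and 10.7% lower. The same 7 autophagy genes had every mutant library above every WT library and atg-10 had every mutant library below, whereas 24.4% of tested genes did not overlap in the higher direction and 24.8% in the lower. The median log2 change of the 10 genes was 0.80, beside 0.01 over all tested genes. Because the 10 genes were chosen with earlier results of these data known, these comparisons describe them and are no independent test. Among called genes the rises were of ordinary size, with a median log2 change of 1.02 for the 7 autophagy genes and 1.13 for all 1584 genes called higher. None of the 10 genes changed by more than 2 on the log2 scale, a size that 3.04% of tested genes passed together with p under 0.01 and adjusted p under 0.1.

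**Figure D1:**
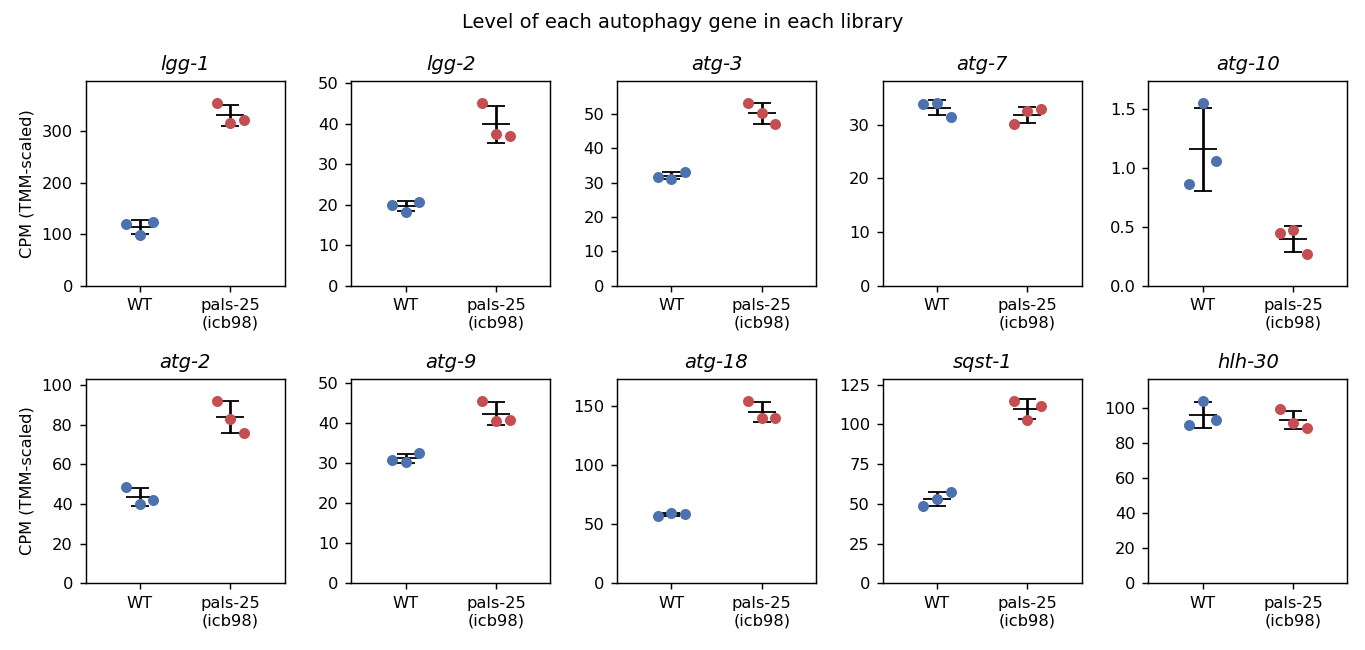
CPM of each autophagy gene in the 3 WT (blue) and 3 pals-25(icb98) libraries (red), with replicates 1 to 3 from left to right in each group. Horizontal marks are group means and bars are SDs. In 7 panels all mutant points lie above the WT points, in atg-10 they lie below, and in atg-7 and hlh-30 the groups overlap.

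lgg-1 (C32D5.9, chromosome II 6346960 to 6347719, minus strand) stood at 119.5, 99.3 and 124 CPM across the WT libraries (replicates 1 to 3, the order kept throughout), and at 355, 316 and 321 CPM in the mutant libraries. The groups lay far apart, and WT replicate 2 was the lowest of all. The log2 change was 1.53 (SE 0.10, 95% interval 1.29 to 1.78, edgeR adjusted p = 0.00045), and 3.92% of tested genes had a larger one. lgg-2 (ZK593.6, chromosome IV 10934196 to 10935903, minus strand) was at 19.9, 18.2 and 20.7 CPM in WT and 45.1, 37.4 and 36.9 CPM in the mutant. The groups lay apart, with mutant replicate 1 above the other mutant libraries. The log2 change was 1.02 (SE 0.10, 95% interval 0.77 to 1.27, edgeR adjusted p = 0.00237).

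Because both genes rose, their proportion was compared per length. TPM here is estimated counts divided by effective transcript length, with every library brought to 1 common total. lgg-2 made up 9.21%, 10.1% and 9.18% of the summed lgg-1 and lgg-2 TPM in WT and 7.17%, 6.71% and 6.54% in the mutant. Every mutant share was below every WT share, a difference of -2.68 percentage points. The exact two-sided permutation test gave p = 0.1, the smallest value that 3 against 3 libraries allow, so this test could not call it. In TPM, lgg-1 was 9.56 ± 0.542 times lgg-2 in WT and 13.7 ± 0.700 times in the mutant (SD, n = 3).

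The enzymes that attach these proteins did not move together. atg-3 (Y55F3AM.4, chromosome IV 1010512 to 1012502, plus strand), the conjugating enzyme, was at 31.7, 31.1 and 33.0 CPM in WT and 53.2, 50.4 and 47.1 CPM in the mutant. All mutant libraries were higher, with a log2 change of 0.65 (SE 0.06, 95% interval 0.50 to 0.81, edgeR adjusted p = 0.00214). atg-7 (M7.5, chromosome IV 11078682 to 11081055, minus strand), the activating enzyme for both systems, was at 33.9, 34.04 and 31.5 CPM in WT and 30.2, 32.5 and 32.9 CPM in the mutant. The groups overlapped, and the log2 change of -0.06 had a 95% interval of -0.21 to 0.09 (edgeR adjusted p = 0.533).

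atg-10 (D2085.2, chromosome II 8659135 to 8659800, plus strand), the conjugating enzyme of the LGG-3 system, was the least abundant of the 10 genes. Its estimated counts were 41, 64 and 43 across WT libraries and 19, 21 and 12 across mutant libraries, which is 0.864, 1.55 and 1.06 CPM against 0.443, 0.471 and 0.272 CPM. The groups did not overlap, and WT replicate 2 was the highest library. The log2 change was -1.54 (SE 0.34, 95% interval -2.36 to -0.72, edgeR adjusted p = 0.0270), and the summed counts of 148 against 52 gave a ratio of 2.9 with an interval of 2.1 to 4.06 that covers counting error only and not the spread between libraries. The call was lost without WT replicate 3 (edgeR adjusted p = 0.0685) and without mutant replicate 1 (0.0966), 2 (0.0722) or 3 (0.0938). Tested among transcripts, the same counts did not pass (edgeR adjusted p = 0.0857). The next gene upstream on the same strand, pyr-1, ends 408 bases before atg-10 and also fell (662 ± 14.01 CPM in WT, 322 ± 37.2 CPM in the mutant), a log2 change of -1.04 with an SE of 0.09 (edgeR adjusted p = 0.0013). The gene on the other strand, piga-1, overlaps the end of atg-10 by 19 bases and had a log2 change of 0.18 (edgeR adjusted p = 0.186). The strand setting of the libraries is not given in the sources used here, so reads within this overlap cannot be assigned to either strand.

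Among the genes for lipid delivery, atg-18 moved most. atg-18 (F41E6.13, chromosome V 8629174 to 8631327, minus strand) encodes a protein that binds phosphoinositide lipids on the forming membrane. It was at 56.9, 59.5 and 58.5 CPM in WT and 154, 139.9 and 139 CPM in the mutant, so each group was tight and the groups lay far apart. Its log2 change was 1.31 (SE 0.06, 95% interval 1.17 to 1.44, edgeR adjusted p = 8.32e-05), the smallest adjusted p of the 10 genes. F41E6.12, the next gene downstream on the same strand, starts 44 bases from atg-18 and changed the other way (31.2 ± 1.29 CPM in WT, 17.5 ± 1.01 CPM in the mutant), a log2 change of -0.84 with an SE of 0.07 (edgeR adjusted p = 0.00139).

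atg-2 (M03A8.2, chromosome X 6806763 to 6817266, plus strand) encodes a lipid transfer protein that works with ATG-18. It was at 48.4, 39.8 and 42.1 CPM in WT and 92.1, 82.8 and 76.1 CPM in the mutant. All mutant libraries were higher, with a log2 change of 0.95 (SE 0.10, 95% interval 0.70 to 1.20, edgeR adjusted p = 0.00333). atg-9 (T22H9.2, chromosome V 349385 to 359658, plus strand) encodes the membrane-spanning protein of the vesicles that feed the forming autophagosome. It was at 30.9, 30.3 and 32.5 CPM in WT and 45.6, 40.5 and 40.9 CPM in the mutant. This was the smallest of the 7 rises, with a log2 change of 0.44 (SE 0.07, 95% interval 0.28 to 0.60, edgeR adjusted p = 0.00993), and with counts scaled for effective length it did not pass (adjusted p = 0.0517).

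The cargo receptor sqst-1 (T12G3.1, chromosome IV 12034282 to 12036891, plus strand), the worm relative of mammalian p62, was at 48.6, 53.0 and 57.3 CPM in WT and 115, 103 and 112 CPM in the mutant. The groups lay apart, and WT replicate 2 was in the middle of its group. The log2 change was 1.05 (SE 0.08, 95% interval 0.86 to 1.24, edgeR adjusted p = 0.000717). Of the other genes with sqst names, added to the description after their values were seen, sqst-2 had a log2 change of 0.44 (edgeR adjusted p = 0.257) and sqst-5 one of 0.27 (0.275). sqst-3 had 0 counts in WT and 33 over the mutant libraries, at least 10.8-fold higher when WT is set to a group floor of 3 counts, and was too low to be tested. sqst-4, with 0 counts in WT and 6 over the mutant libraries, was also too low to be tested, and its groups overlapped.

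The transcription factor hlh-30 (W02C12.3, chromosome IV 4014793 to 4034951, minus strand) was at 90.3, 104 and 93.2 CPM in WT and 99.3, 91.6 and 89.0 CPM in the mutant. The groups overlapped, and the log2 change of -0.04 had a 95% interval of -0.22 to 0.14 (edgeR adjusted p = 0.713). These are RNA levels, and where the HLH-30 protein was located was not measured.

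**Figure D2:**
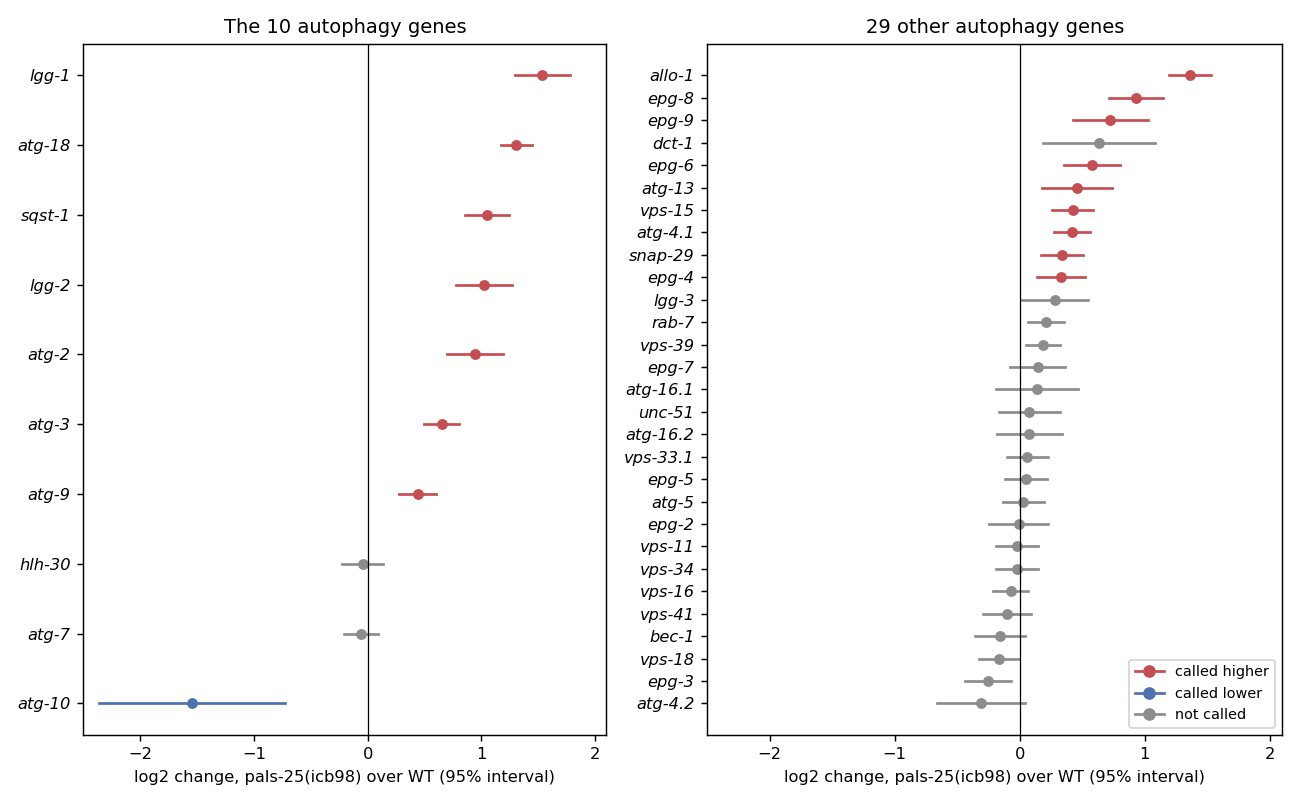
Log2 change (pals-25(icb98) over WT) with its 95% interval for the 10 autophagy genes (left) and 29 other autophagy genes (right). Red marks genes called higher, blue lower and grey not called at an edgeR adjusted p under 0.05. sepa-1, with 1 count in WT, is left out of the right panel. Changes run from -1.54 for atg-10 to 1.53 for lgg-1 among the 10 genes.

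The calls of the 7 risen genes held without each library in turn, with highest edgeR adjusted p from 0.00139 (atg-18) to 0.0392 (atg-9). Without WT replicate 2 the log2 changes were 1.44 for lgg-1, 1.32 for atg-18, 1.05 for sqst-1, 0.97 for lgg-2, 0.89 for atg-2, 0.63 for atg-3, 0.42 for atg-9 and -1.27 for atg-10, and all 8 calls held. WT replicate 2 was the lowest WT library in 5 of the 7 risen genes and mutant replicate 1 the highest mutant library in all 7. The like shares over all tested genes are not given here, so these counts are not read as a trait of the autophagy genes. Summed levels of several marker lists moved with the groups as well. Molting genes fell (4 of 7 called lower, 2048 to 3693 CPM in WT and 725 to 1115 in the mutant). Epidermal markers fell as well (4 of 7, 4577 to 5660 against 2981 to 3633 CPM). Most of these are cuticle collagen genes (dpy-7, rol-6, bli-1, dpy-5 and sqt-3), so their sum need not stand for all epidermal RNA. The authors report another collagen gene, col-12, as higher in this mutant. Oocyte and yolk markers rose (4 of 7 called higher, 1835 to 4011 against 10430 to 14410 CPM). Intestinal markers (1946 to 2410 against 2353 to 2495 CPM) had 1 of 7 called higher. Body wall muscle markers (13540 to 13720 against 14170 to 15010 CPM) had 1 of 5 higher, and pharyngeal markers (834 to 1213 against 875 to 964 CPM) 1 of 5 lower. Among all tested genes 9.8% were called higher and 10.7% lower, and 1 call in a list of 5 or 7 lies near these shares. The sums of 7 neuronal (308 to 376 against 336 to 363 CPM) and 8 germline markers (1725 to 2298 against 2187 to 2356 CPM) overlapped between groups. That of 7 sperm markers did not (112 to 315 against 339 to 389 CPM), where 24.4% of single tested genes did not overlap in the higher direction. The part of tissue makeup or stage in the changes of the autophagy genes was not tested, and in RNA from whole animals fewer cells of a type and less RNA per cell cannot be told apart.

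**Figure D3:**
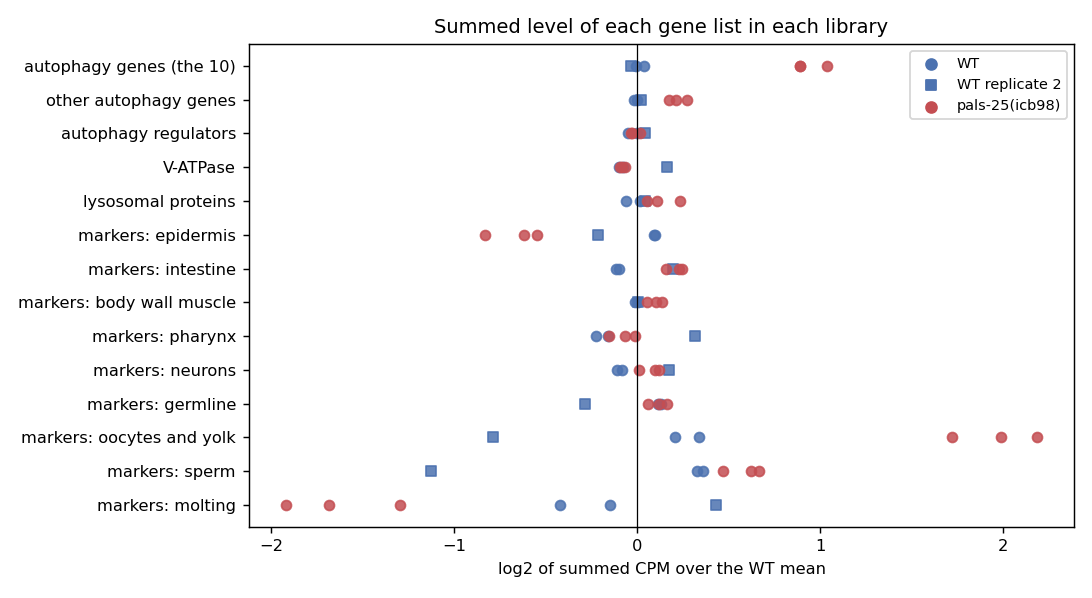
Summed CPM of each gene list in each library, as log2 over the WT mean of that list. Blue circles are WT, blue squares WT replicate 2 and red circles pals-25(icb98). The 10 autophagy genes lie close together in WT (471 to 494 CPM) and higher in the mutant (895 to 990.3 CPM). The molting, epidermal, oocyte and yolk, other autophagy, body wall muscle and sperm lists also separate the groups. The lysosomal list does so by a narrow gap (at most 15270 CPM in WT, at least 15380 CPM in the mutant).

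Per length, lgg-1 was the most abundant of the 10 genes by a wide margin. In WT it was at 184 ± 18.6 TPM, followed by hlh-30 (36.4 ± 3.48), atg-18 (32.7 ± 1.104), atg-3 (24.6 ± 3.28), sqst-1 (20.5 ± 1.70), lgg-2 (19.2 ± 0.909), atg-7 (15.1 ± 0.799), atg-9 (12.8 ± 1.41), atg-2 (5.25 ± 0.495) and atg-10 (2.82 ± 0.912), each the mean TPM ± SD of 3 libraries. The ranges of sqst-1 and lgg-2 overlapped, as did those of atg-7 and atg-9, and the other 7 neighbouring pairs lay apart. In the mutant lgg-1 (527 ± 25.9 TPM), atg-18 (80.2 ± 3.58) and sqst-1 (42.1 ± 1.67) led, and hlh-30 (35.2 ± 1.51) no longer came before atg-18 and stood beside lgg-2 (38.5 ± 3.92) and atg-3 (34.97 ± 0.339). The neighbours from sqst-1 to atg-3 overlapped in range. Below them came atg-9 (17.5 ± 1.53 TPM), atg-7 (14.4 ± 0.840), atg-2 (10.04 ± 0.880) and atg-10 (0.945 ± 0.262). The 10 genes summed to 358, 336 and 366 TPM in WT and 844, 782 and 776 TPM in the mutant. lgg-1 made up 52% of this sum in WT and 65.8% in the mutant.

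**Figure D4:**
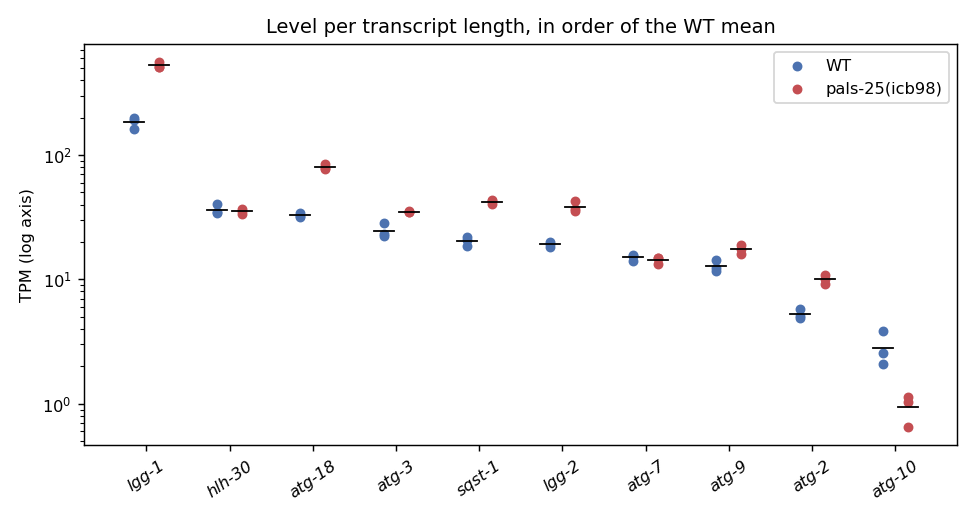
TPM of the 10 autophagy genes on a log axis, in order of the WT mean. Blue points are the WT libraries, red points the pals-25(icb98) libraries and black lines the group means. lgg-1 leads in both groups, and atg-18 lies above hlh-30 in the mutant but not in WT.

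The 10 genes are listed with 31 transcripts, of which 7 were under 0.5 counts over all libraries and 23 were tested. Of these 6 were called higher and 1 lower, where 3.68% of the 24607 tested transcripts were called higher and 2.43% lower. The atg-18 transcripts F41E6.13a and F41E6.13b rose alike, with log2 changes of 1.29 and 1.34 (edgeR adjusted p = 0.00323 and 0.00252), and F41E6.13a held 55.6% ± 4.32 of the gene's TPM in WT and 54.8% ± 2.24 in the mutant (SD, n = 3). C32D5.9, the single lgg-1 transcript, rose by 1.54 (adjusted p = 0.00252). The leading transcripts of lgg-2 (ZK593.6a.1, 1.07), atg-3 (Y55F3AM.4a, 0.68) and atg-9 (T22H9.2a, 0.44) also rose (edgeR adjusted p = 0.0315, 0.0127 and 0.0315), and lost the call without mutant replicate 1 (0.125, 0.0713 and 0.118) and without most other single libraries. The minor transcripts named by the rule, ZK593.6a.2, Y55F3AM.4b and T22H9.2b, were not called, nor were D2085.2 of atg-10 and M7.5 of atg-7. D2085.2 is the single atg-10 transcript and has the same counts as the gene. The gene passed in the gene fit (edgeR adjusted p = 0.027) and D2085.2 did not in the transcript fit (0.0857).

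For atg-2 and sqst-1 the split between transcripts swung within groups. M03A8.2.1 held 39.2%, 83.1% and 91.9% of the atg-2 TPM in WT and 96.5%, 81.2% and 95.9% in the mutant, the rest being M03A8.2.2. Its log2 change was 1.34 and it was not called by edgeR (adjusted p = 0.057), unlike in DESeq2 (0.000148). T12G3.1a.2 held 23.6%, 72.5% and 64.5% of the sqst-1 TPM in WT and 47.8%, 70.5% and 44.8% in the mutant, the rest being T12G3.1a.1, and neither was called although their sum was. In all 7 genes with more than 1 transcript the leading share overlapped between groups, and exact permutation tests gave p from 0.3 to 1 (1 after adjustment over the 7 genes). The smallest p possible with this many libraries is 0.1, so these tests could not call a change in share.

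hlh-30 is listed with 13 transcripts, of which 5 were at under 0.5 counts. W02C12.3c led with 32.5% ± 2.54 of its TPM in WT and 27.6% ± 5.55 in the mutant, beside W02C12.3d (25.2% ± 4.90 and 27.2% ± 2.97), W02C12.3g.2 (19.1% ± 4.72 and 22.6% ± 2.83) and W02C12.3b (15.2% ± 2.83 and 14.6% ± 2.997). These 4 overlapped between groups. W02C12.3g.3, a minor form named because it was the only transcript called lower, was estimated at 33, 113 and 148 counts across WT libraries and 1, 0 and 0.3 counts across mutant libraries (edgeR adjusted p = 0.0266, and 0.0904 to 0.127 without WT replicate 3 or any 1 mutant library). W02C12.3g.3 passed the filter on low counts only through the WT libraries, so its call gives no further support for a fall. It is 3 bases shorter than W02C12.3g.2. Their summed counts were 1130, 831 and 823 in WT and 862, 1066 and 985 in the mutant, so the pair together overlapped between groups.

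**Figure D5:**
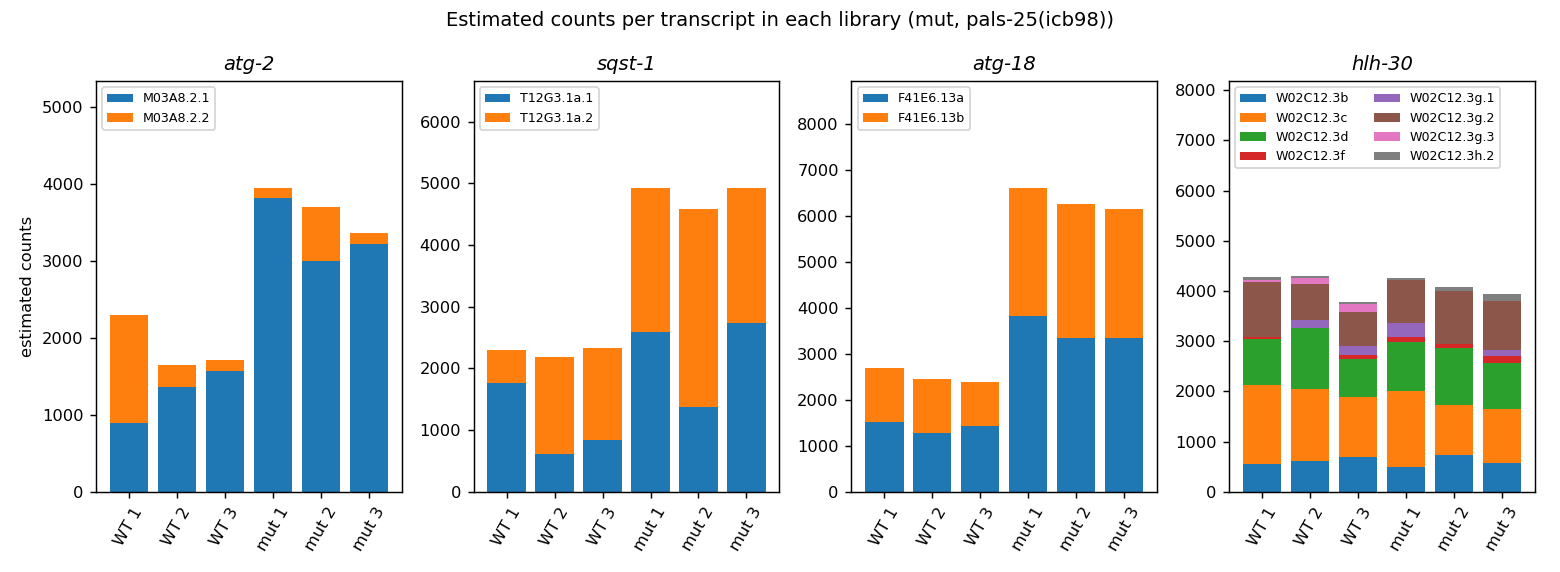
Estimated counts per transcript of atg-2, sqst-1, atg-18 and hlh-30, stacked for each library (WT 1 to 3, then pals-25(icb98) 1 to 3). Transcripts with over 100 counts in all are drawn. The split of atg-2 and sqst-1 differs between libraries of 1 group, that of atg-18 stays close to even, and the hlh-30 totals overlap.

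The other steps of the pathway were examined with 30 further autophagy genes, of which 10 were called higher and 0 lower by edgeR (14 and 2 at an unadjusted p under 0.05, 14 and 0 with DESeq2, 10 and 0 with limma-voom), where 9.8% of all tested genes were called higher and 10.7% lower by edgeR and 14.2% higher by DESeq2. The median log2 change of the 30 genes was 0.14. Each step below holds 3 to 9 genes, and shares as low as 1 of 6 or 1 of 9 lie near the share over all genes. Among cargo receptors 2 of 4 rose. allo-1, which marks paternal organelles for removal in embryos, was at 35.8, 31.7 and 35.2 CPM in WT and 93.4, 84.0 and 86.2 CPM in the mutant (log2 change 1.36, SE 0.07, edgeR adjusted p = 0.000164). sepa-1, a receptor for germline P granule proteins in embryos, had 1 count over the WT libraries and 381 over the mutant libraries, a ratio of 374 with a counting interval of 66.8 to 14800 (edgeR adjusted p = 0.000703). sepa-1 passed the filter on low counts only through the mutant libraries, so its call and the gap between its groups give no further support. It is counted among the 2 cargo receptors and the 10 genes called higher. For allo-1, every mutant library lay above every WT library.

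In the lipid kinase complex that acts at the forming membrane, epg-8 was at 18.2, 15.6 and 18.8 CPM in WT and 34.7, 32.8 and 32.7 CPM in the mutant (log2 change 0.93, edgeR adjusted p = 0.00201), and vps-15 rose by 0.42 (0.0115), the other 2 of 4 not passing. In the initiation kinase complex epg-9 rose by 0.72 (adjusted p = 0.0135) and atg-13 by 0.46 (0.0395), 2 of 4. Of 3 membrane supply genes, epg-6, a relative of atg-18, rose by 0.58 (0.0106) and epg-4 by 0.33 (0.0359). Of 6 other conjugation genes, atg-4.1, a protease that processes LGG-1, rose by 0.42 (0.00752), while atg-5, a partner in the ATG-10 system, had a log2 change of 0.03 (0.781). Of 9 fusion genes snap-29, a membrane fusion protein, rose by 0.34 (0.0233). Without mutant replicate 1 the calls of atg-13 (0.145), epg-9 (0.0717), epg-6 (0.0501), epg-4 (0.116) and snap-29 (0.0868) were lost, and atg-13 and epg-4 also lost theirs without any other library except WT replicate 2. epg-9 lost its call without mutant replicate 3 (0.0607), and snap-29 without mutant replicate 2 (0.0801) or 3 (0.0832).

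Calls in the lists of regulators and lysosomal genes are read beside the 9.8% higher and 10.7% lower over all tested genes, and no difference between lists was tested. Of 9 regulators 0 were called higher by edgeR (1 at an unadjusted p under 0.05, 1 with DESeq2 and 1 with limma-voom) and 1 lower, with a median log2 change of -0.02. The one that fell was aak-2, a subunit of the AMP-activated kinase (-0.26, edgeR adjusted p = 0.0328), while let-363, the worm TOR kinase, was at 0.06 (0.499) and mxl-3, which opposes hlh-30, at 0.08 (0.731). Of 22 subunits of the V-ATPase, the proton pump of lysosomes, 0 were called higher by edgeR (1 at an unadjusted p under 0.05, 1 with DESeq2 and 0 with limma-voom) and 1 lower, unc-32 (-0.19, adjusted p = 0.0214), with a median of -0.09. Of 38 tested lysosomal hydrolases and membrane proteins 6 rose and 3 fell, with a median of 0.02. nuc-1, a DNA-degrading enzyme, rose by 0.48 (adjusted p = 0.00597), ncr-1, a sterol transporter, by 0.59 (0.00618) and asp-1, an aspartic protease, by 0.38 (0.0158). hex-1, a hexosaminidase, fell by 0.33 (0.0114), and the largest fall among called genes was cpz-1, a cathepsin, with a log2 change of -0.65 (0.0418). lipl-6 was further down (-1.88) and did not pass (0.0532), and the largest called rises were those of lipl-3 (1.86, adjusted p = 0.0487) and lipl-2 (1.69, 0.0254), all 3 lipase genes named after their values were seen. lipl-2 and lipl-3 lost their calls without any 1 library other than WT replicate 2 (edgeR adjusted p from 0.0525 to 0.166), and lipl-6 passed without WT replicate 1 (0.0388) or 2 (0.00183). The calls of aak-2, unc-32 and cpz-1 were lost without any 1 library other than WT replicate 2, with edgeR adjusted p from 0.0649 to 0.149. asp-1 lost its call without WT replicate 3 (0.0549) or mutant replicate 3 (0.0548), and hex-1 without mutant replicate 1 (0.0662) or 3 (0.0612).

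Across the 6 libraries the risen genes followed each other closely. On log2 CPM, Pearson's r was 0.996 for atg-9 with lgg-2, 0.995 for atg-3 with lgg-2, 0.993 for lgg-1 with lgg-2, 0.986 for atg-2 with lgg-2, and 0.991 for atg-18 with both atg-3 and sqst-1. These values mostly repeat the difference between groups, since the 6 points form 2 clusters, and they carry no test. atg-7 and hlh-30 were most like atg-10, with r of 0.425 and 0.575. Among the 8695 genes that averaged 10 CPM or more, those most like lgg-1 were W08E12.2 (0.9997), epg-8 (0.9988) and ikke-1 (0.9988), and 128 genes exceeded 0.99. Those most like sqst-1 were pbo-4 (0.9988), srlf-7 (0.9986) and lec-8 (0.9976), and 48 exceeded 0.99. epg-8, a subunit of the lipid kinase complex, was the one gene of the autophagy lists among these 6.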

How the data were processed

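The authors estimated transcript abundance with kallisto against the WS235 transcriptome and compared groups with sleuth (versions not given in the sources used here). The deposited files hold estimated counts per transcript with transcript length and effective length. Sleuth was not run here. Counts of 35862 transcripts were summed to 22010 genes and rounded. Of these genes 21839 (99.2%) were matched to the Ensembl WBcel235 annotation, whose coordinates are given counted from 1. Tests of genes and of transcripts used edgeR 4.0.16 under R 4.3.3 (quasi-likelihood F-test, robust, TMM, filterByExpr at a minimum count of 10), with group as the one term, all 6 libraries and Benjamini-Hochberg adjustment over all 16166 genes or 24607 transcripts. Standard errors are those implied by F. The edgeR p-values set the group difference against the variation between these libraries, with the variance estimate drawn partly from all genes or transcripts. TPM was computed from estimated counts and effective lengths, not read from the files as first planned. Ratios with 1 to 3 counts in a group, and that of atg-10, have exact 95% counting intervals, which cover counting error only. kallisto divides reads between overlapping transcripts by a model, so single transcripts are less certain than gene sums. Alternatives were DESeq2 1.42.0, limma-voom and limma 3.58.1 on log2(TPM + 1) and log2(TPM + 0.1), other scaling factors and filters, length-scaled counts, a replicate block and leaving out each library. The script was tested on simulated data.

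The 10 genes and the lists were chosen with earlier results of these data known. Named are all 10 genes, their transcripts with at least 5% of the gene's TPM in either group, up to 4 called genes of smallest adjusted p per list with the largest call in the opposite direction, pals-22, pals-25, pals-5 and chil-27, and the genes most alike across libraries. Genes outside this rule were chosen after their values were seen: the neighbours of the 10 genes, the other sqst genes, atg-5, let-363, mxl-3, lipl-2, lipl-3, lipl-6 and W02C12.3g.3.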

Additional observations from a re-analysis of the deposited data

How the results depend on the processing

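The 7 higher calls among the 10 autophagy genes held under every alternative run, except atg-9 with length-scaled counts (edgeR adjusted p = 0.0517), and leaving out each library in turn always left 7. The atg-10 call rests on few counts, and whether this lies behind its loss without single libraries was not tested. The number called lower was 0 with a filter of 1 CPM in 3 libraries, which leaves atg-10 untested, and 0 to 1 without each library in turn. Over the 10 genes and all alternatives, 5 values lost their call, 1 of atg-9 and 4 of atg-10. Regulators called higher numbered 1 with DESeq2, limma-voom or the filter of 1 CPM. V-ATPase genes called with DESeq2 numbered 1 higher and 2 lower. Lysosomal genes called lower numbered 6 with DESeq2 and 1 with length-scaled counts or limma on log2(TPM + 1) or log2(TPM + 0.1). Transcripts called lower numbered 2 with DESeq2. The lgg-2 share difference was -3.98 percentage points in estimated counts, a measure without length. The cause of the other differences was not tested.

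Without each library in turn, other autophagy genes numbered 5 to 14 higher and 0 to 1 lower, regulators 0 to 2 higher and 0 to 2 lower, V-ATPase genes 0 to 2 higher and 0 to 3 lower, lysosomal genes 2 to 13 higher and 0 to 8 lower, and transcripts 3 to 6 higher and 0 to 1 lower. The lgg-2 share difference ran from -2.86 to -2.39 points. The differences in leading share changed sign for T22H9.2a (range -5.42 to 1.25 points), F41E6.13a (-3.09 to 1.22), ZK593.6a.1 (-4.203 to 7.24) and T12G3.1a.2 (-14.2 to 10.3). hlh-30, not called, had a log2 change of 0.02 without WT replicate 2. Over all genes, calls numbered 1584 higher and 1729 lower, and 3163 and 2973 without WT replicate 2, 912 and 576 without WT replicate 3, 1153 and 1056 without WT replicate 1, and 690 and 324, 823 and 631, and 723 and 381 without mutant replicates 1, 2 and 3. DESeq2 called 2294 and 2487. Without single libraries, the share of all tested genes called ran from 4.21% to 19.3% higher and from 1.98% to 18.2% lower. The list counts above are read beside these shares. Shares over all transcripts are not given for these settings.

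Replicate numbers are shared between groups but were not taken as pairs. Deviations of same-numbered libraries correlated at 0.0812, 0.321 and 0.183, all positive. Those of differently numbered libraries ran from -0.309 to 0.218, the highest being WT replicate 1 with mutant replicate 3. Whether same-numbered libraries share an effect was not tested. With a replicate block, all 8 calls of the autophagy genes held (edgeR adjusted p = 0.00365 to 0.0473). Transcripts numbered 2 higher and 0 lower, regulators 0 lower and lysosomal genes 2 higher. All genes numbered 1184 higher and 1010 lower, which is 7.32% and 6.25% of those tested. At this depth atg-10, with 12 to 64 counts a library, is the member least precisely measured.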
